A study of Homo sapiens with 6 samples.

Results

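The antioxidant, glutathione and NRF2 genes of HK-2 cells were examined with and without oxidized low-density lipoprotein (OX-LDL). The group consists of 39 gene symbols that were listed by function and matched to the gene names of the expression table. They were found as 40 of its 58825 entries, because SOD2 had 2 identifiers. The second SOD2 entry (ENSG00000285441) was under the minimum level of 0.1 FPKM (fragments per kilobase of transcript and per unit of library size) on average and was not tested. The other 39 entries were among the 19510 genes tested.

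HK-2 is an immortalized human line of proximal tubular epithelial cells. Poly(A) RNA was sequenced in 3 Control libraries, which the labels describe as untreated and without a time, and in 3 libraries of cells exposed to OX-LDL at 25 μg/ml over 48 h. The study's methods describe serum starvation before the treatment. All libraries came from this single line, no batch was named, and the labels did not say whether the libraries of a group came from separate cultures. The study's methods say that its experiments on cells were repeated independently, without naming these libraries, so the p-values measure the spread between these libraries, which may be technical in part.

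NRF2, the product of NFE2L2, is a transcription factor that KEAP1 binds and sends for degradation. When oxidants or electrophiles modify KEAP1, NRF2 accumulates and binds antioxidant response elements near genes for glutathione synthesis, thioredoxin, quinone reduction, NADPH supply and iron storage. Glutathione and thioredoxin pass electrons from NADPH to enzymes that reduce peroxides. Proximal tubular cells are rich in mitochondria and are exposed to filtered lipids and oxidants.

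In OX-LDL libraries, 8 of the 39 tested genes rose and 4 fell. PRDX6, PIR, TXN, SOD1, GCLM, TALDO1, PRDX4 and PGD were higher. NFE2L2, NQO1, FTH1 and GSS were lower. A gene was called when the Benjamini-Hochberg adjusted p-value of edgeR's quasi-likelihood test was under 0.05. The 12 calls were 30.8% of the tested members, beside 15.3% of all genes tested. Of all genes, 7.91% were called higher and 7.42% lower. Genes with high levels were called more often, and the members were mostly high, with a median level of 21.1 FPKM against 2.19 FPKM over all genes tested. Where the mean level reached 10 FPKM, 11 of 27 members (40.7%) and 30.4% of all genes were called.

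The changes went in both directions and most were small. The median log2 fold change of the 39 genes was -0.02, and that of all genes tested was -0.00. The FPKM values of the groups did not overlap for 20 members (51.3%), beside 37.2% of all genes. A fold change above 2 or below 0.5 with an unadjusted p-value under 0.05 was found for 2 members, PRDX6 and GPX3, and for 6.36% of all genes. With library size alone as the scale, 6 members were called higher and 5 lower. Without Control 2, OX-LDL 1 or OX-LDL 3, the higher calls came to 4, 5 and 5, with 1 lower call in each of these fits. Without Control 3, 7 higher and 2 lower calls were found. The genes NFE2L2, PRDX6, SOD1, PIR and TXN were called in all 6 fits that left out a library.

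**Figure D1:**
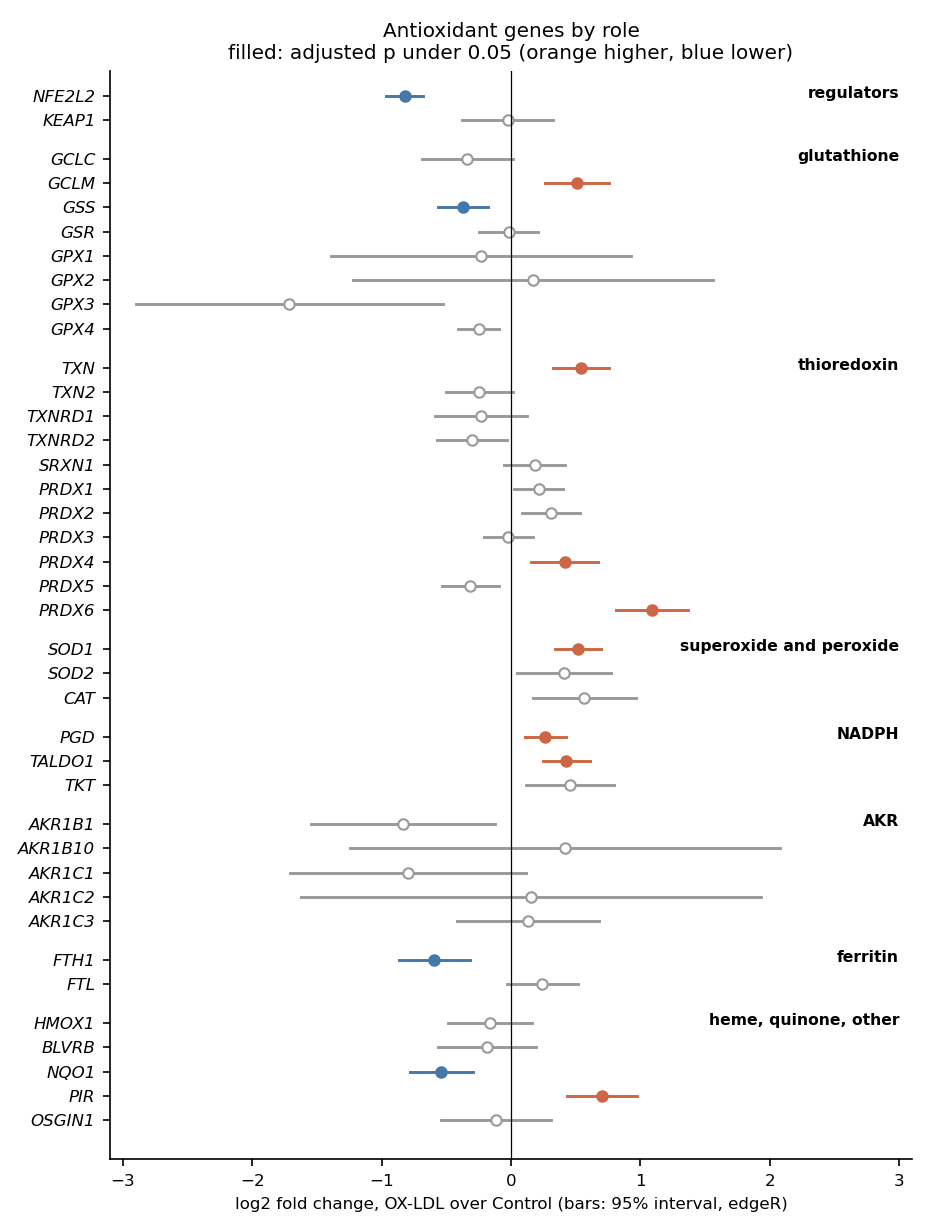
Log2 fold change of OX-LDL over Control (horizontal axis) for the 39 tested genes, grouped by role, with 95% intervals from edgeR as bars. Filled points are called genes, 8 higher (orange) and 4 lower (blue). GPX3, at -1.72, lies farthest to the left as an open point with Control libraries from 8.54 to 39.3 FPKM, and PRDX6, at 1.09, lies farthest to the right.

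The total of the deposited counts was 62561347 to 76797607 per library, which corresponds to 15640337 to 19199402 read pairs at about 4 counts per pair. The first principal component held 34.8% of the variance and separated the groups. Levels are given as FPKM, which is scaled by the transcript length used for each gene. Comparisons of level between genes therefore depend on that length. All 9 tubular and epithelial markers were detected, with a summed level of 194 to 224 FPKM in Control and 248 to 286 in OX-LDL. KRT8, KRT19 and CDH6 were called higher, whereas PAX8 fell from 46.6 ± 12.9 to 19.4 ± 4.17 FPKM (adjusted p = 0.0182 in edgeR, lost without Control 1, Control 2, OX-LDL 1 or OX-LDL 3 at 0.0541, 0.0609, 0.0709 and 0.0691), and CDH1 was near 0.1 FPKM in both groups. Of the 10 entries for proximal tubule function, 7 had more than 12 counts in some library, and their sum, mostly GGT1, was at 18.97 to 26.7 FPKM in Control and 16.1 to 17.9 in OX-LDL. LRP2, SLC22A6 and SLC22A8 had at most 12 counts in every library. The leukocyte markers PTPRC and CD3E, the endothelial markers VWF and CDH5 and the fibroblast marker COL1A2 also had at most 12 counts in every library. The summed leukocyte list, 2 of whose 4 genes were detected and which was mostly CD68, was at 3.11 to 7.74 FPKM in Control and 9.16 to 14.0 in OX-LDL. The endothelial list, with 1 of 3 genes detected, was at most 0.0958 FPKM in every library. The fibroblast and muscle list, with 3 of 4 genes detected, was at 0.751 to 0.883 FPKM in Control and 0.906 to 1.18 in OX-LDL. The part of these lists in the results was not tested.

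Sequences that NRF2 is known to read were looked for first. The core of an antioxidant response element, TGACNNNGC, was searched on both strands (GCNNNGTCA on the other strand) in the 300 bases from 250 before to 50 after each RefSeq start (GRCh38.p14). It was present in 13.3% of 35116 promoters and in 7 of the 43 promoters (16.3%) of the 30 members that matched the table. Among the matched members, 3 of the 6 called higher (PGD, GCLM and PIR), 0 of the 2 called lower and 3 of the 22 not called (TXNRD1, GPX2 and KEAP1) held a match. Only these 6 of the 8 higher calls and 2 of the 4 lower calls could be searched. These counts are per gene, and a gene can have more than 1 promoter, so they do not compare with the share of all promoters. Sequence outside the 300 bases was not searched. These matches are shown because they place the element beside genes that rose and beside genes that did not. The core is in capitals and each sequence runs along the strand of its gene.
GCLM, chr1:93909446-93909474, minus strand: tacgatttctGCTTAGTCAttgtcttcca
PGD, chr1:10398853-10398881, plus strand: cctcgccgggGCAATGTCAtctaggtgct
PIR, chrX:15493289-15493317, minus strand: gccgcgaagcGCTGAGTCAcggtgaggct
TXNRD1, chr12:104215670-104215698, plus strand: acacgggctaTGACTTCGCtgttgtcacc
TXNRD1, chr12:104215761-104215789, plus strand: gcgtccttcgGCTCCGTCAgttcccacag
TXNRD1, chr12:104286920-104286948, plus strand: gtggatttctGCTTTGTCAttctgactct
GPX2, chr14:64942849-64942877, minus strand: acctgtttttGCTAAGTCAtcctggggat
KEAP1, chr19:10502807-10502835, minus strand: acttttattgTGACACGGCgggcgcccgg
KEAP1, chr19:10502784-10502812, minus strand: gcccggctctGCTTAGTCAtggtgacctg
The match of PIR lies 26 bases after the start and overlaps TGANTCA, the core that AP-1 factors read, and none of the other 8 matches overlaps it. The GCLM match starts 34 bases before the start of the gene. A match is a description of the letters and not of binding.

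The NRF2 regulator itself was the member with the smallest p-value. NFE2L2 (ENSG00000116044, chr2:177227595-177287777, minus strand, GRCh38) was at 71.7, 74.2 and 68.5 FPKM in the Control libraries and 40.4, 38.7 and 39.6 FPKM in the OX-LDL libraries. Every OX-LDL library was lower than every Control library, and the values within a group lay close together. The log2 fold change was -0.82 (SE 0.06, n = 3 per group, adjusted p = 0.00117 in edgeR), and the adjusted p was 0.00333 to 0.00939 when a library was left out. The annotated genes AC019080, DNAJC19P5 and MIR3128, overlap NFE2L2 on its strand, and their reads may be shared. In bulk RNA, fewer cells that express a gene and less RNA per cell cannot be told apart.

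KEAP1, the adaptor that holds NRF2, was not called. It was at 13.5, 11.3 and 10.7 FPKM in Control and 13.2, 11.5 and 9.44 in OX-LDL, and the groups overlapped over most of their range. The log2 fold change was -0.03, with a 95% interval of -0.38 to 0.33 (adjusted p = 0.932, edgeR). The ratio of NFE2L2 to KEAP1 within a library was 5.31, 6.58 and 6.38 in Control and 3.06, 3.36 and 4.19 in OX-LDL. These ratios did not overlap, and the exact two-sided permutation test gave p = 0.1, the smallest value that 3 libraries against 3 can give, for this and each of the other 3 ratios computed (0.1 also after adjustment over the 4). Each of the 4 ratios sets a called member over one that was not called, and the pairs were chosen with earlier results of these data known. Their separation is therefore no further evidence beside the calls of the single genes.

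**Figure D2:**
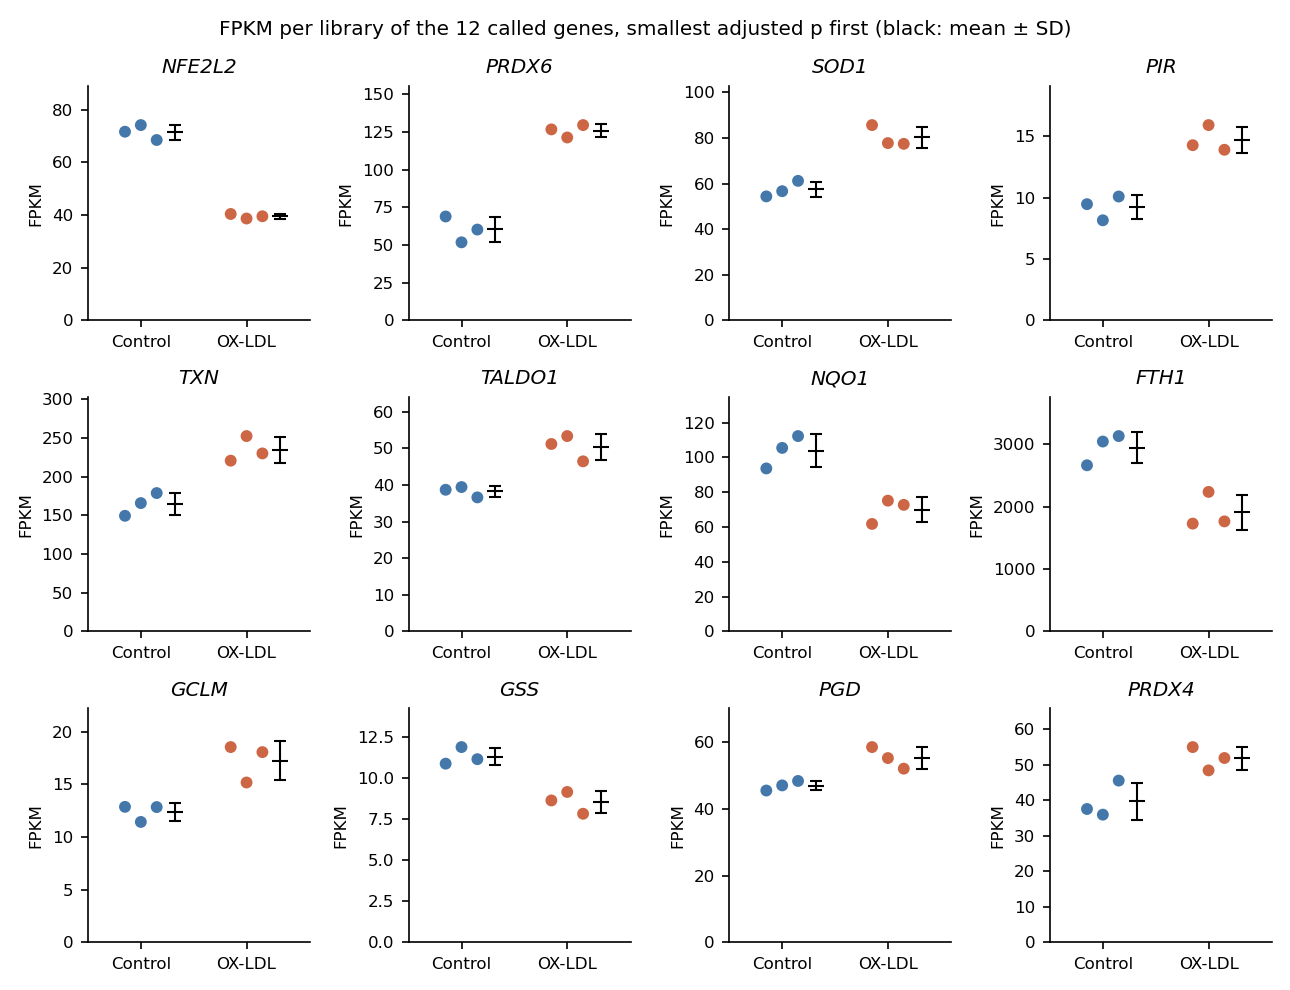
FPKM (vertical axes, each from 0) of the 12 called genes in every library, with the mean and SD (n = 3) in black, Control in blue and OX-LDL in orange. No gene's groups overlap, and NFE2L2, with the smallest adjusted p, is at 71.5 ± 2.84 FPKM in Control and 39.6 ± 0.863 in OX-LDL.

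Glutathione is made by glutamate-cysteine ligase, a pair of a catalytic (GCLC) and a modifier (GCLM) subunit, and by glutathione synthetase (GSS). GCLM (ENSG00000023909, chr1:93885199-93909456, minus strand) was at 12.9, 11.4 and 12.8 FPKM in Control and 18.5, 15.2 and 18.05 in OX-LDL. All OX-LDL libraries were above all Control libraries, with a log2 fold change of 0.51 (SE 0.10, adjusted p = 0.0211 in edgeR). The call was lost without Control 2 (adjusted p = 0.0737), OX-LDL 1 (0.0717) or OX-LDL 3 (0.0782). Its promoter, which holds the element shown above near its 3′ end, is printed over the 250 bases before the RefSeq start (chr1:93909431-93909680, minus strand, GRCh38.p14), with the core in capitals and a GC content of 72.4%.
GCLM promoter: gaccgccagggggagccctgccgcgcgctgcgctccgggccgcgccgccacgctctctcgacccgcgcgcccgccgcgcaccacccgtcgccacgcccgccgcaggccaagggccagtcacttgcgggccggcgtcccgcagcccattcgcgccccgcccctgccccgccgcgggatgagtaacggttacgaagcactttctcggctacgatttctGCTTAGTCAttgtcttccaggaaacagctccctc

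The catalytic partner GCLC was not called. It was at 5.54, 5.21 and 5.21 FPKM in Control and 3.35, 4.97 and 4.01 in OX-LDL. The OX-LDL libraries were all lower but differed from each other, and the fitted change missed the threshold (log2 fold change -0.34, SE 0.15, adjusted p = 0.178 in edgeR), although it passed without OX-LDL 2 (adjusted p = 0.0379). GCLM was the more abundant subunit per transcript length in every library, and the ratio of GCLM to GCLC was 2.32, 2.19 and 2.46 in Control and 5.53, 3.05 and 4.50 in OX-LDL. All 3 OX-LDL ratios were above the Control ratios.

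GSS (ENSG00000100983, chr20:34928432-34955808, minus strand), which adds glycine in the last step, was at 10.9, 11.9 and 11.1 FPKM in Control and 8.62, 9.13 and 7.81 in OX-LDL. The groups did not overlap, and the log2 fold change was -0.37 (SE 0.08, adjusted p = 0.0279 in edgeR). This call was lost without Control 1 (adjusted p = 0.0621), Control 2 (0.0976), Control 3 (0.0648), OX-LDL 1 (0.0864) or OX-LDL 3 (0.0995), and was kept without OX-LDL 2 (0.0243). GSR, the reductase that regenerates glutathione with NADPH, was at 39.8 ± 2.42 FPKM in Control and 38.5 ± 3.43 in OX-LDL (SD, n = 3), with a log2 fold change of -0.02 and a 95% interval of -0.24 to 0.21.

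The supply of cystine to this route was measured on genes outside the 39. Of 10 tested entries for cystine supply and glutathione turnover, 2 of which are GGT1, 0 were called higher and 4 lower. The shares over all genes tested were 7.91% higher and 7.42% lower. SLC7A11, the cystine-glutamate exchanger and a known target of NRF2 and of ATF4, was at 13.6, 10.6 and 12.5 FPKM in Control and 1.71, 0.918 and 2.07 in OX-LDL. The fitted log2 change was -2.94 (SE 0.30, adjusted p = 0.00272 in edgeR). SLC3A2, the heavy chain that carries this exchanger to the membrane, was at 20.5, 23.9 and 22.5 FPKM in Control and 10.2, 8.49 and 10.7 in OX-LDL, and the log2 fold change was -1.15 (SE 0.11, adjusted p = 0.00199). CHAC1, which degrades glutathione and is known as an ATF4 target, was at 7.06, 5.66 and 4.68 FPKM in Control and 0.956, 0.787 and 1.12 in OX-LDL (log2 fold change -2.57, SE 0.23, adjusted p = 0.00184). For all 3 genes the groups lay far apart, and each was called in all 6 fits that left out a library.

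The fourth lower call was an entry of GGT1, the glutamyl transferase of the cell surface. GGT1 had 2 identifiers that overlap on the same strand, and the reads changed between them from library to library. The called entry (chr22:24556007-24628987) starts before the other (chr22:24594811-24629001). It also overlaps SNRPD3 on that strand, so their reads may be shared. The entry that was called was at 18.2, 0.0518 and 22.6 FPKM in Control, and the other was at 3.13, 18.2 and 3.88 FPKM in the same libraries. Summed, they were at 22.1 ± 4.15 FPKM in Control and 16.6 ± 1.01 in OX-LDL (SD, n = 3), so the call for the single entry (adjusted p = 0.0371 in edgeR) is uncertain. That call was kept only without Control 2 (adjusted p = 0.00527) and was lost without any other library (0.0781 to 0.123).

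**Figure D3:**
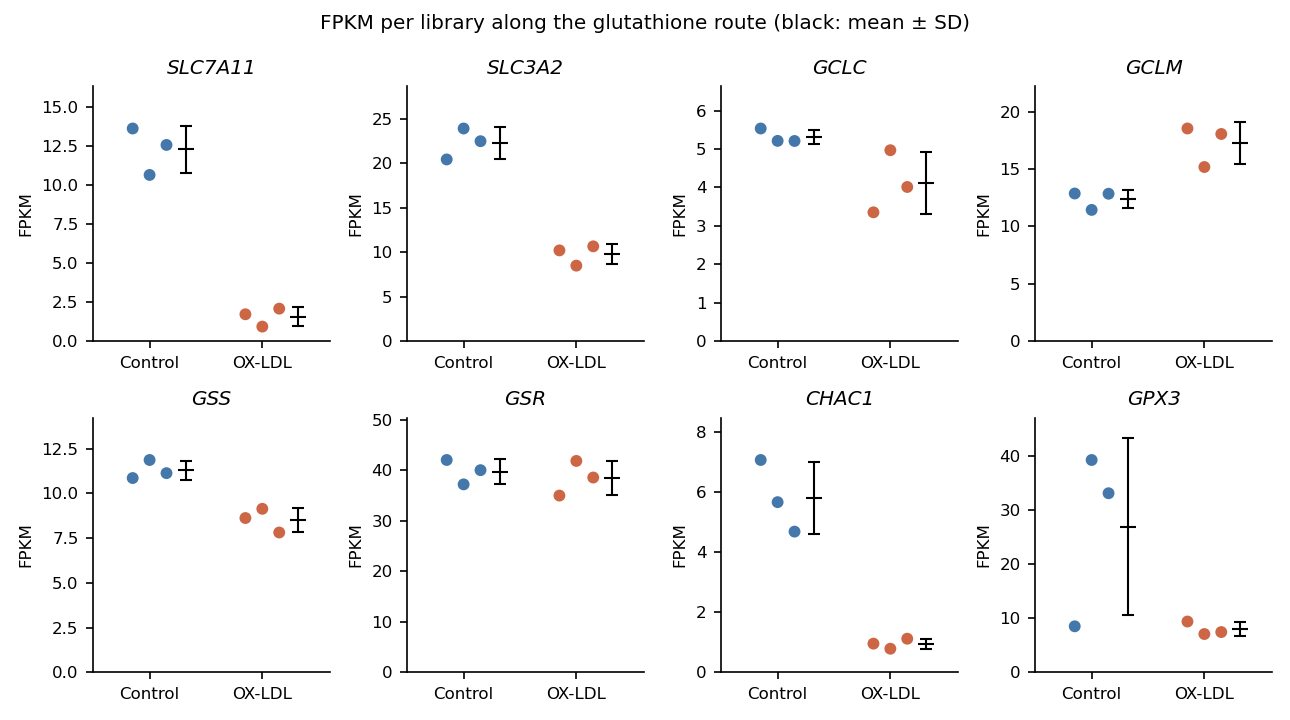
FPKM (vertical axes, each from 0) of 8 genes along the glutathione route in every library, with the mean and SD (n = 3) in black, Control in blue and OX-LDL in orange. SLC7A11, SLC3A2 and CHAC1 are lower in all OX-LDL libraries, GCLM is higher, GSS is lower, GSR overlaps, and GPX3 has 1 Control library, at 8.54 FPKM, among the OX-LDL values.

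Of the members, 6 carry selenocysteine at their active site, encoded by a TGA codon that elsewhere stops translation. These are the glutathione peroxidases GPX1 to GPX4, which reduce peroxides with glutathione, and the thioredoxin reductases TXNRD1 and TXNRD2. The codon is shown in capitals with the coding strand around it (GRCh38, GENCODE 29), because it is the feature these genes share and because the peroxidases and reductases place it differently.
GPX1, chr3:49358132-49358134, minus strand: gtggcgtccctcTGAggcaccacggtc
GPX2, chr14:64942607-64942609, minus strand: gtggcttcgctcTGAggcacaaccacc
GPX3, chr5:151025469-151025471, plus strand: gtggccagctacTGAggcctgacgggc
GPX4, chr19:1105403-1105405, plus strand: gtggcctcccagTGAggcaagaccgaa
TXNRD1, chr12:104348413-104348415, plus strand: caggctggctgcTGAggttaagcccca
TXNRD2, chr22:19877111-19877113, minus strand: gtgacaggctgcTGAgggtaagcgcca
In both reductases 1 further codon and a stop codon follow the TGA, whereas in the peroxidases the reading frame goes on. None of these 6 genes was called, and 5 of the 6 had a fitted change below 0, with a median log2 fold change of -0.24.

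GPX4, which reduces lipid peroxides within membranes, came nearest to a call. It was at 53.1, 59.1 and 57.0 FPKM in Control and 47.0, 44.7 and 47.3 in OX-LDL. The groups did not overlap, but the fall was small (log2 fold change -0.25, SE 0.07, adjusted p = 0.0509 in edgeR), and it passed in DESeq2 (adjusted p = 0.0281) and limma (0.0341).

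GPX3, the secreted peroxidase that the proximal tubule makes for plasma, had the most negative fitted change of the members and was not called. It was at 8.54, 39.3 and 33.2 FPKM in Control and 9.43, 7.11 and 7.47 in OX-LDL. Control 1 lay among the OX-LDL libraries while the other Control libraries were several times higher. The log2 fold change was -1.72 (SE 0.50, adjusted p = 0.0643 in edgeR), and without Control 1 it was -2.14 with an adjusted p of 0.00307. With all libraries, DESeq2 gave an adjusted p of 0.0239.

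GPX1, the most widespread cytosolic peroxidase, ranged from 9.97 to 30.7 FPKM in Control and from 12.2 to 30.3 in OX-LDL, so the spread within each group was as wide as the whole range. Its log2 fold change of -0.23 had a 95% interval of -1.39 to 0.93, and 2 annotated pseudogenes held 2.56% to 12.6% of the counts of gene and pseudogenes together. GPX2 was near 1 FPKM in both groups, with an interval of -1.22 to 1.56. For either peroxidase, changes within these intervals remain compatible with the values.

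The thioredoxin system gave 3 of the higher calls and no lower call among 11 genes, whose median log2 change was 0.18. TXN (ENSG00000136810, chr9:110243810-110256507, minus strand), the cytosolic thioredoxin, was at 149, 166 and 179 FPKM in Control and 220.4, 252 and 229.8 in OX-LDL. The rise was larger than the spread in either group (log2 fold change 0.54, SE 0.09, adjusted p = 0.0119 in edgeR). Its reductase TXNRD1, whose promoters hold 3 matches to the element, was at 109, 119 and 91.6 FPKM in Control and 91.2, 103 and 71.9 in OX-LDL. EID3 and RPL18AP3 overlap TXNRD1 on its strand. The values overlapped between the groups, and TXNRD1 was not called (log2 fold change -0.23, 95% interval -0.59 to 0.13). The ratio of TXN to TXNRD1 was 1.38, 1.39 and 1.95 in Control and 2.42, 2.44 and 3.19 in OX-LDL, without overlap.

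PRDX6 (ENSG00000117592, chr1:173477330-173488815, plus strand) was the member with the largest rise. It is the peroxiredoxin with a single active cysteine, it reduces phospholipid hydroperoxides, and it also has phospholipase activity. PRDX6 was at 68.9, 51.8 and 60.2 FPKM in Control and 127, 121 and 129.5 in OX-LDL. All OX-LDL libraries were far above all Control libraries, with a fold change of 2.13 (log2 fold change 1.09, SE 0.12, adjusted p = 0.00319 in edgeR). It was the only member with a call and a fold change past 2.

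The other peroxiredoxins, which differ in where they act, were less uniform. PRDX4 (ENSG00000123131, chrX:23664262-23686397, plus strand), of the endoplasmic reticulum, was at 37.5, 35.9 and 45.5 FPKM in Control and 54.9, 48.4 and 51.9 in OX-LDL, with a log2 fold change of 0.41 (SE 0.11, adjusted p = 0.0466 in edgeR). It was called without Control 3 (adjusted p = 0.0257) and lost without Control 1 (0.125), Control 2 (0.134), OX-LDL 1 (0.135), OX-LDL 2 (0.0557) or OX-LDL 3 (0.129). PRDX1, the abundant cytosolic form, was at 626 ± 52.9 FPKM in Control and 709.7 ± 29.2 in OX-LDL (SD, n = 3) and was not called (adjusted p = 0.131). PRDX2, also cytosolic, was at 27.2 ± 0.308 and 33.0 ± 3.67 FPKM without overlap (adjusted p = 0.0748). The mitochondrial PRDX3 was at 89.9 ± 4.28 and 86.7 ± 5.45 FPKM, with a 95% interval of -0.21 to 0.17 for the log2 fold change. PRDX5, which is found in mitochondria and peroxisomes, was the only peroxiredoxin with a fitted change under -0.3, at 109 ± 6.55 and 85.8 ± 8.68 FPKM (log2 fold change -0.32, adjusted p = 0.0672), and it passed without OX-LDL 2 (0.027) and in DESeq2 (0.0369).

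Of the mitochondrial pair, TXN2 was at 21.6 ± 2.88 FPKM in Control and 17.8 ± 0.948 in OX-LDL, and TXNRD2 was at 2.21 ± 0.0647 and 1.75 ± 0.195 FPKM. Neither gene's groups overlapped and neither was called (adjusted p = 0.188 and 0.127 in edgeR). SRXN1, the sulfiredoxin that repairs overoxidized peroxiredoxins and a familiar NRF2 target, was at 18.9 ± 1.83 and 20.9 ± 1.63 FPKM, with a log2 fold change of 0.18 and a 95% interval of -0.05 to 0.42.

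The enzymes that dispose of superoxide and hydrogen peroxide all had a fitted change above 0, and 1 of the 3 was called. SOD1 (ENSG00000142168, chr21:31659622-31668931, plus strand), the cytosolic copper-zinc superoxide dismutase, was at 54.4, 56.7 and 61.2 FPKM in Control and 85.6, 77.7 and 77.4 in OX-LDL. Every OX-LDL library was above every Control library (log2 fold change 0.52, SE 0.08, adjusted p = 0.00831 in edgeR). The mitochondrial SOD2 was far lower in FPKM, at 2.90, 3.02 and 2.45 in Control and 4.09, 2.85 and 3.92 in OX-LDL. The gap in counts was smaller, with 4183, 4434 and 3280 for SOD2 and 9641, 10206 and 10056 for SOD1 in Control. The groups of SOD2 overlapped through OX-LDL 2. SOD2 was not called (adjusted p = 0.126 in edgeR) but passed without that library (0.0264). The second SOD2 entry added little, since the sum of both was 2.80 ± 0.288 FPKM in Control and 3.68 ± 0.597 in OX-LDL. CAT, the catalase of peroxisomes, was at 5.60, 4.87 and 6.10 FPKM in Control and 6.29, 8.99 and 8.69 in OX-LDL. OX-LDL 1 lay close to the Control libraries, and CAT passed only without it among the fits that left out a library (adjusted p = 0.0676 with all libraries, 0.0372 without OX-LDL 1, edgeR). In DESeq2 the adjusted p for CAT was 0.0124.

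The pentose phosphate pathway, which supplies NADPH to both systems, had 2 of its 3 members called higher, and the groups did not overlap for any of the 3. Of all genes tested, 7.91% were called higher and 37.2% had groups that did not overlap. TALDO1 (ENSG00000177156, chr11:747415-764947, plus strand), the transaldolase, was at 38.7, 39.4 and 36.6 FPKM in Control and 51.2, 53.3 and 46.4 in OX-LDL. The log2 fold change was 0.43 (SE 0.08, adjusted p = 0.0149 in edgeR), and the call was lost without Control 2 (adjusted p = 0.0529) or OX-LDL 1 (0.0545). PGD (ENSG00000142657, chr1:10398592-10419808, plus strand), the 6-phosphogluconate dehydrogenase that forms NADPH directly, was at 45.4, 47.0 and 48.3 FPKM in Control and 58.4, 55.1 and 52.0 in OX-LDL. This was the smallest change among the called members (log2 fold change 0.27, SE 0.07, adjusted p = 0.0427), and it was lost without Control 1 (0.113), Control 2 (0.125), Control 3 (0.0768), OX-LDL 1 (0.131), OX-LDL 2 (0.0665) or OX-LDL 3 (0.0766). The transketolase TKT was at 30.9, 28.0 and 32.2 FPKM in Control and 34.1, 49.2 and 38.7 in OX-LDL, with the widest spread of the 3 genes among the OX-LDL libraries, and was not called (adjusted p = 0.081).

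Of 9 tested genes outside these 3, from the pentose phosphate pathway and other routes of NADPH supply, 1 was called higher and 2 lower. ME1, the cytosolic malic enzyme, was at 25.2 ± 1.87 FPKM in Control and 33.1 ± 2.07 in OX-LDL (log2 fold change 0.42, SE 0.09, adjusted p = 0.0263 in edgeR). RPE, the ribulose phosphate epimerase, fell from 25.8 ± 6.22 to 10.5 ± 2.64 FPKM (log2 fold change -1.26, SE 0.24, adjusted p = 0.0179). PGLS, the lactonase between the dehydrogenases, fell from 8.49 ± 0.817 to 5.17 ± 0.64 FPKM (log2 fold change -0.68, SE 0.13, adjusted p = 0.0175). All 3 calls were lost without Control 2 (adjusted p = 0.0834, 0.0653 and 0.0627), Control 3 (0.0703, 0.0513 and 0.0512) or OX-LDL 3 (0.0901, 0.0543 and 0.0685), and those of ME1 and PGLS also without OX-LDL 1 (0.0776 and 0.0669).

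Ferritin stores iron in a shell of heavy (FTH1) and light (FTL) chains, and the heavy chain oxidizes the iron. Both transcripts carry an iron-responsive element before the coding sequence, a hairpin through which iron regulatory proteins control their translation. The elements are shown because the transcripts share this control while the ratio of their levels differed between the groups without overlap. The apical loop is in capitals (GRCh38, GENCODE 29, transcript strand), and all 5 bases before it can pair with the 5 after it, counting G-U pairs.
FTH1: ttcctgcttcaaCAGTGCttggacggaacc
FTL: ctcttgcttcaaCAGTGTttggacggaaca
The loop lies 165 bases before the coding sequence in FTH1 and 161 bases before it in FTL.

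FTH1 (ENSG00000167996, chr11:61959718-61967634, minus strand) had the highest level of all members and fell. It was at 2666, 3047 and 3134 FPKM in Control and 1729.5, 2238 and 1765 in OX-LDL. The groups did not overlap, and the log2 fold change was -0.59 (SE 0.12, adjusted p = 0.0196 in edgeR). The call was lost without Control 2 (adjusted p = 0.0685), Control 3 (0.0589), OX-LDL 1 (0.0687) or OX-LDL 3 (0.0746). FTL was at 1182, 1429 and 1604 FPKM in Control and 1569.8, 1763 and 1535 in OX-LDL, and these values overlapped (log2 fold change 0.24, 95% interval -0.03 to 0.52, adjusted p = 0.218). The ratio of FTH1 to FTL was 2.26, 2.13 and 1.95 in Control and 1.10, 1.27 and 1.15 in OX-LDL, with every OX-LDL ratio below every Control ratio. FTH1 has 25 annotated pseudogenes in the table, which held 1.62% to 2.19% of the counts of gene and pseudogenes together, and the 16 pseudogenes of FTL held 0.0562% to 0.0884%. BEST1 overlaps FTH1 on the other strand, as AC092115 does NQO1, BMX does PIR and AP000254 does SOD1, and whether strand was used in counting was not given in the sources used here.

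**Figure D4:**
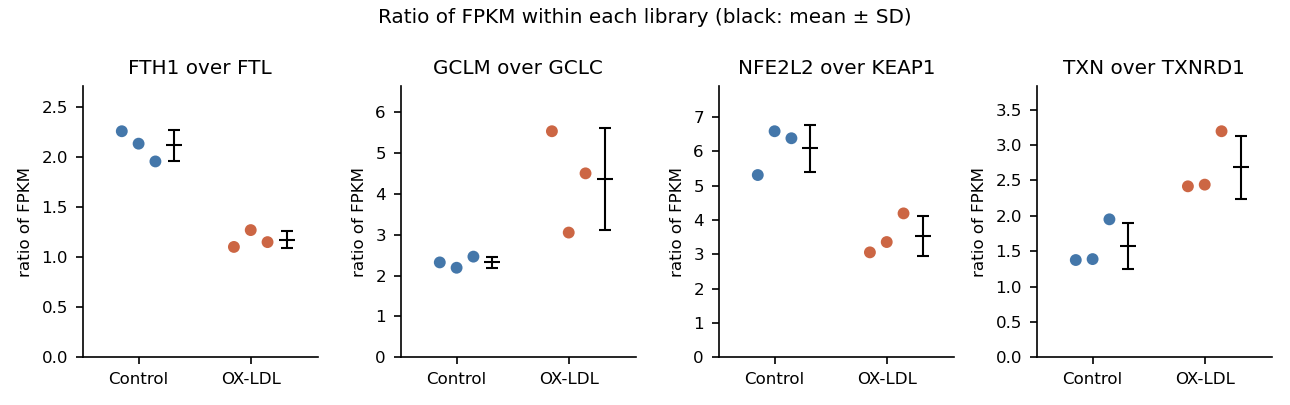
Ratio of the FPKM of 2 genes within each library (vertical axes, each from 0) for FTH1 over FTL, GCLM over GCLC, NFE2L2 over KEAP1 and TXN over TXNRD1, with the mean and SD (n = 3) in black, Control in blue and OX-LDL in orange. No pair of groups overlaps, and the means went from 2.11 to 1.17, from 2.33 to 4.36, from 6.09 to 3.53 and from 1.57 to 2.68. Each ratio sets a called gene over one that was not called, so its separation is no further evidence beside the call.

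Heme and quinone enzymes are among the most used readouts of NRF2. NQO1 was called lower, whereas HMOX1 and BLVRB were not called. NQO1 (ENSG00000181019, chr16:69706996-69726668, minus strand), which reduces quinones by 2 electrons, was at 93.6, 105 and 112 FPKM in Control and 61.7, 75.1 and 72.7 in OX-LDL. All OX-LDL libraries were lower (log2 fold change -0.54, SE 0.10, adjusted p = 0.0187 in edgeR). The call was lost without Control 2 (adjusted p = 0.0646), Control 3 (0.0528), OX-LDL 1 (0.0538) or OX-LDL 3 (0.0588). HMOX1, the inducible heme oxygenase, was at 13.2, 15.3 and 18.7 FPKM in Control and 13.0, 13.5 and 14.8 in OX-LDL. The OX-LDL values lay at the lower end of the Control range, with a log2 fold change of -0.16 and a 95% interval of -0.49 to 0.16 (adjusted p = 0.491).

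PIR (ENSG00000087842, chrX:15384799-15493333, minus strand), an iron-binding nuclear protein that is induced through NRF2, rose. It was at 9.48, 8.16 and 10.1 FPKM in Control and 14.3, 15.9 and 13.9 in OX-LDL, with a wide gap between the groups (log2 fold change 0.70, SE 0.11, adjusted p = 0.0114 in edgeR). BLVRB, the biliverdin and flavin reductase, was at 6.95 ± 0.788 and 5.95 ± 0.979 FPKM and was not called (adjusted p = 0.487). OSGIN1, an oxidative stress-induced growth inhibitor, was near 2 FPKM in both groups and was not called (adjusted p = 0.722).

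The aldo-keto reductases (AKR) reduce aldehydes and ketones made by lipid peroxidation. None of the 5 was called, and the groups overlapped for each of them. AKR1B1, aldose reductase, was the most abundant, at 412, 353 and 189 FPKM in Control and 207, 131 and 185 in OX-LDL. Control 3 lay within the OX-LDL range, and the log2 fold change of -0.84 (SE 0.30, adjusted p = 0.112 in edgeR) became -1.10 with an adjusted p of 0.0283 without that library. In DESeq2 the adjusted p for AKR1B1 was 0.017.

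AKR1B10, which many NRF2-active cells express, was at 9.13, 2.60 and 1.34 FPKM in Control and 5.33, 3.35 and 8.50 in OX-LDL. AKR1C2 was at 2.11, 0.515 and 0.369 FPKM in Control and 0.889, 0.508 and 1.88 in OX-LDL. Both were highest in Control 1 and OX-LDL 3, so 1 library of each group stood apart. Their fitted changes had 95% intervals of -1.24 to 2.08 and -1.62 to 1.93, and the sign of each turned when a library was left out. AKR1C1, at 1.24 ± 0.6 and 0.698 ± 0.173 FPKM, and AKR1C3, at 5.33 ± 1.39 and 5.72 ± 1.15 FPKM, also overlapped. The coding sequences of AKR1C1 and AKR1C2 were identical at 98.0% of 969 bases with a shared run of 186 bases, and AKR1C3 shared 91.4% and 91.0% with them, so reads may be split between these 3 genes and their values are uncertain.

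**Figure D5:**
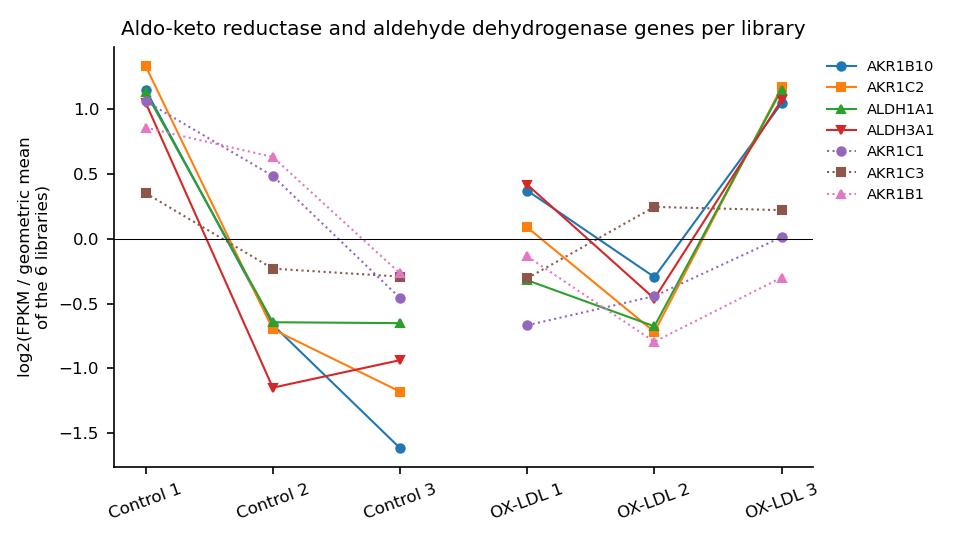
Level of each gene relative to its geometric mean over the 6 libraries (vertical axis, log2 of the FPKM ratio) in each library (horizontal axis), for 5 aldo-keto reductases and the aldehyde dehydrogenases ALDH1A1 and ALDH3A1. Lines join the values of 1 gene within a group and imply no order of the libraries. AKR1B10, AKR1C2, ALDH1A1 and ALDH3A1 (solid lines) are highest in Control 1 and OX-LDL 3.

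Beyond these genes, 110 other symbols of the same pathways were followed, of which 97 entries were tested. There were 12 higher calls and 12 lower calls, which included the uncertain entry of GGT1, and the median of the fitted log2 changes was 0.06. Beside this, 7.91% of all genes tested were called higher and 7.42% lower. Where the mean level reached 10 FPKM, 30.4% of all genes were called. The counts of each single list, here and above, are to be read beside these shares. Leaving out libraries moved the higher and lower calls of the 97 entries to 8 and 6 without Control 2, 6 and 7 without OX-LDL 1, and 7 and 6 without OX-LDL 3. The glutathione transferases, glutaredoxins and related enzymes had 5 higher and 1 lower of 19 tested, and a median of 0.34. The higher genes were GLRX3 (19.6 ± 1.18 and 29.9 ± 1.01 FPKM, log2 fold change 0.64), GSTA4 (2.84 ± 0.0932 and 5.20 ± 0.508 FPKM, 0.90), GSTO1 (26.6 ± 2.73 and 39.8 ± 1.95 FPKM, 0.62), GLRX5 and GSTP1. GSTA4 conjugates 4-hydroxynonenal, an aldehyde of lipid peroxidation. The lower gene was GLRX2, a mitochondrial glutaredoxin (6.49 ± 0.331 and 3.81 ± 0.377 FPKM, log2 fold change -0.74). GLRX3, GSTA4, GSTO1 and GLRX2 were called in all 6 fits that left out a library, with the highest adjusted p at 0.0259, 0.0391, 0.0436 and 0.032 in edgeR. GSTP1 was lost in all 6 of these fits (adjusted p = 0.0579 to 0.138), and GLRX5 in all but the fit without Control 3 (0.0592 to 0.108).

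Among 11 tested genes of the thioredoxin fold and of methionine repair, 2 rose and 1 fell. MSRB1, a selenoprotein that repairs oxidized methionine, was at 6.17, 5.78 and 6.05 FPKM in Control and 10.1, 10.2 and 9.94 in OX-LDL (log2 fold change 0.78, SE 0.09, adjusted p = 0.0046 in edgeR). TXNL1, a thioredoxin-like protein of the proteasome, was at 4.47 ± 0.45 and 7.19 ± 0.481 FPKM (log2 fold change 0.71). SESN2, a stress-inducible sestrin and a target of ATF4 and p53, fell from 21.6 ± 1.80 to 6.66 ± 1.08 FPKM (log2 fold change -1.67, SE 0.13, adjusted p = 0.00157).

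Of 13 tested partners and regulators of NRF2, 1 rose and 1 fell. SQSTM1, the autophagy receptor p62 that binds KEAP1, was at 93.5, 130.2 and 127 FPKM in Control and 71.3, 69.7 and 72.0 in OX-LDL (log2 fold change -0.69, SE 0.12, adjusted p = 0.0141 in edgeR). DPP3, a peptidase that also binds KEAP1, was at 7.74 ± 0.75 and 11.005 ± 0.337 FPKM (log2 fold change 0.54, adjusted p = 0.0136). The call of SQSTM1 was lost without Control 2 (adjusted p = 0.0529), OX-LDL 1 (0.0575) or OX-LDL 3 (0.0554), and that of DPP3 without OX-LDL 1 (0.0526) or OX-LDL 3 (0.0533).

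Conjugation, carbonyl reduction and efflux gave 2 higher and 2 lower calls of 19 tested. The carbonyl reductases CBR3 (1.81 ± 0.499 and 5.96 ± 1.73 FPKM, log2 fold change 1.75) and CBR1 (16.1 ± 0.728 and 20.5 ± 0.785 FPKM, 0.38) rose. The epoxide hydrolase EPHX1 (93.1 ± 12.4 and 60.7 ± 3.03 FPKM, -0.59) and the efflux pump ABCC3 (4.91 ± 0.917 and 2.91 ± 0.261 FPKM, -0.72) fell. Of 16 tested genes for iron, heme and other oxidant defence, BLVRA, the biliverdin reductase of the heme route, rose (11.9 ± 0.663 and 18.5 ± 0.817 FPKM, log2 fold change 0.66), and PRXL2A, a peroxiredoxin-like protein, fell (16.4 ± 1.01 and 11.5 ± 1.13 FPKM, -0.48). BLVRA was called in all 6 fits that left out a library. The other calls of these lists were lost without Control 2, with adjusted p of 0.0623 for CBR3, 0.0646 for CBR1, 0.0534 for EPHX1, 0.062 for ABCC3 and 0.0585 for PRXL2A in edgeR. They were also lost without OX-LDL 3 (0.0563, 0.0616, 0.0633, 0.0786 and 0.0651), those of CBR3, CBR1, EPHX1 and ABCC3 without OX-LDL 1 (0.0541, 0.0583, 0.0576 and 0.0803), that of CBR1 without Control 3 (0.0573) and that of PRXL2A without Control 1 (0.0621).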

How the data were processed

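Processing by the authors, per the labels, named cutadapt 1.9, HISAT2 2.0.4, StringTie 1.3.4d, edgeR and DESeq2. They deposited estimated counts, whole and not scaled for library size, and FPKM values, scaled for transcript length and library size. Because counts of 4, 8 and 12 were over-represented, 1 read pair was taken as about 4 of these counts. Counts of 0 were listed by the authors at 0.0001 FPKM. Strand use was not given in the sources used here. The table holds 58825 genes, and coordinates follow it on GRCh38. PGLS was matched by its identifier because the table names it otherwise. Any 2 libraries of a group gave a chi-square per gene of 14.9 to 25.6, counted in read pairs, so none was a copy of another. Whether they are separate cultures is not shown by this. The 6 libraries were grouped by their labels.

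Counts were fitted with edgeR 4.0.16 (R 4.3.3) after TMM scaling (factors 0.985 to 1.02), by glmQLFit and glmQLFTest with group alone in the design, on the 19510 genes averaging 0.1 FPKM or more. P-values were adjusted by Benjamini-Hochberg over all of these and called under 0.05. SE was taken as log2 fold change over the root of F. Alternatives were DESeq2 1.42.0, limma 3.58.1 on log2(FPKM + 0.1) and log2(FPKM + 1), RLE scaling, library size only, a minimum of 1 FPKM, no minimum, counts divided by 4, a replicate block and leaving out each library.

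All 39 members could be named, and of each other list the called genes with the smallest p-values, at most 4. GLRX5, GSTP1, ALDH1A1 and ALDH3A1 were named after their values had been seen. The members, lists and ratios were chosen with earlier results of these data known. Sequences are from RefSeq (GRCh38.p14) and GENCODE 29 (GRCh38). Protein sequences were not used here. No batch was named by the labels.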

Additional observations from a re-analysis of the deposited data

How the results depend on the processing

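The 12 called genes kept their direction under every alternative run, and all 12 stayed called with RLE scaling, with counts divided by 4, with a minimum of 1 FPKM and with DESeq2. PRDX4 and PGD were lost with library size only, without a minimum and in limma. DESeq2 called 11 members higher and 8 lower and 25 pathway genes higher and 14 lower. With a minimum of 1 FPKM, 10 members were called higher and 6 lower. Leaving out a library gave 4 to 7 members higher, 1 to 6 lower, 6 to 13 pathway genes higher, 6 to 14 lower, 619 to 1473 of all genes higher and 537 to 1470 lower. These fits have fewer samples. The fitted change of 8 uncalled members changed sign in 1 or more of them: KEAP1 (-0.14 to 0.0918), GSR (-0.0804 to 0.0554), GPX1 (-0.72 to 0.0450), GPX2 (-0.23 to 0.89), PRDX3 (-0.0680 to 0.0299), AKR1B10 (-0.0116 to 1.58), AKR1C2 (-0.50 to 1.35) and OSGIN1 (-0.23 to 0.00695). No pairing by replicate number was seen in the values, since the deviations of same-numbered libraries correlated at -0.04, -0.00 and 0.04. Whether same-numbered libraries were handled together is not shown by this. A replicate block gave 854 genes higher and 782 lower, and 6 members higher and 3 lower, without GSS, PRDX4 and PGD. The median log2 change of all genes was -0.00, and GPX2, AKR1C1 and AKR1C2 had the lowest levels of the members, near 1 FPKM. GPX2 had only 56 to 212 counts per library, where depth limits the precision. AKR1C1 had 361 to 1420 and AKR1C2 195 to 1198 counts, with a wide spread between libraries. GPX2 and AKR1C1 were under the minimum of 1 FPKM and had no value there.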

Other observations

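A pattern within the groups was noticed after the values had been seen. AKR1B10 and AKR1C2 were highest in Control 1 among the Control libraries and in OX-LDL 3 among the OX-LDL libraries, at 1.5 times the next library or more in both groups. This held for 2 of the 39 tested members (5.13%), for 2 of the 97 other pathway genes (2.06%), the aldehyde dehydrogenases ALDH1A1 and ALDH3A1, and for 160 of the 19510 genes tested (0.820%). With any margin, 6 members (15.4%) and 9.28% of all genes were highest in these 2 libraries. The cause was not tested.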
